A study of Homo sapiens with 6 samples.

Results

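The genes of the cell cycle and of mitosis were examined in RNA sequencing of A549 cells, as a measure of growth at the level of the transcripts. The 52 genes were chosen by symbol from a fixed list of regulators and parts of the cell division machinery, out of 58676 genes listed, and all 52 passed the filter on low values that left 17999 genes to be tested. They were divided by the step in which the product is best known to act, that is 10 genes of the passage from G1 to S phase (G1/S), 15 genes of DNA replication (S) and 27 genes of the passage from G2 into and through mitosis (G2/M).

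A549, an established line of human lung adenocarcinoma cells, does not express recoverin (Rec), a calcium sensor of the retina. A549 Rec (3 replicates) carried a human recoverin cDNA with a myc tag in the retroviral vector pMXs-puro, and A549 MOCK (3 replicates) carried the vector without the insert. Cells transduced for stable expression were selected with puromycin, and RNA was taken from confluent 2D cultures, for which the labels give 6 days. The transgene was overexpressed from the vector, and whether the selected cells were a pool or 1 clone was not given in the sources used here.

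A cell divides by switching on waves of genes in order. Cyclin D with CDK4 or CDK6 releases E2F transcription factors from RB proteins, E2F then turns on the genes of DNA replication, and later the MuvB complex with MYBL2 and FOXM1 turns on the genes of mitosis, which MuvB represses in resting cells as part of the DREAM complex. For this reason the level of such transcripts in a culture is commonly read as a measure of the share of dividing cells, and tumor cells in culture express the whole programme. In bulk RNA, fewer cells in a phase and less RNA per cell cannot be told apart.

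The wiring of these waves is visible in the promoters, which are shown here because the classes G1/S, S and G2/M are defined by function and not by sequence. RefSeq promoter windows (GRCh38.p14, 250 bases before to 50 bases after a start) were given for 40 of the 52 genes, with 59 windows in all. The windows were searched on both strands for E2F words (TTTCCCGC, TTTGGCGC, TTTCGCGC or TTTGCCGC), for the words of the cell cycle genes homology region (CHR, TTTGAA or TTCGAA), which the MuvB complex binds, and for CCAAT, the box bound by NF-Y. Stretches of 6 windows are printed 5′ to 3′ along the gene, with the matching words in capitals. The first 3 are from genes of the G1/S and S classes with E2F words.

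E2F1, chr20:33686388-33686574, minus strand: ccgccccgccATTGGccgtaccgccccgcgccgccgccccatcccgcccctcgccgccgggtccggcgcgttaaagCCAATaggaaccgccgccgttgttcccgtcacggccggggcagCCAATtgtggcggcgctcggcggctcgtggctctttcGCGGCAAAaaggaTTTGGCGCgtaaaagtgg

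PCNA, chr20:5126633-5126784, minus strand: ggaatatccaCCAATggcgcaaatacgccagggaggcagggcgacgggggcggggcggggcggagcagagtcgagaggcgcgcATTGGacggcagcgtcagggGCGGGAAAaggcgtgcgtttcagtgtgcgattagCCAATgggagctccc

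CDT1, chr16:88803744-88803771, plus strand: cagggcgcccGCGGGAAAtttggcggga

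The other 3 are from genes of the G2/M class, in which CHR words stand next to CCAAT boxes.

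CDK1, chr10:60778160-60778195, plus strand: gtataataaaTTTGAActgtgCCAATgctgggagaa

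MKI67, chr10:128126433-128126531, minus strand: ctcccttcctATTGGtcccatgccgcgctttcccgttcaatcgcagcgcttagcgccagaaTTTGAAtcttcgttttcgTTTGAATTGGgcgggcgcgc

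CDC20, chr1:43358793-43358940, plus strand: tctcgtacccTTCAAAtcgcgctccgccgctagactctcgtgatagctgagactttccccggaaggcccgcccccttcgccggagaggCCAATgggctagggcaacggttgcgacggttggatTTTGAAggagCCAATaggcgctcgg

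CHR words were in 17 of 29 windows of G2/M genes (58.6%), in 2 of 21 windows of S genes (9.52%) and in 0 of 9 windows of G1/S genes, against 16.35% of all 35116 promoter windows. E2F words were in 11 of 21 windows of S genes (52.4%), in 2 of 9 of G1/S genes (22.2%) and in 3 of 29 of G2/M genes (10.3%), against 3.315% of all windows. CCAAT was in 76.2% of the S windows, 75.9% of the G2/M windows and 33.3% of the G1/S windows, against 34.61% of all. Counted by gene, 15 of 21 G2/M genes had a CHR word and 10 of 13 S genes had an E2F word in at least 1 window. Words of different motifs overlapped in 2 of the 59 windows, of which the MKI67 window printed above is 1. These matches describe the letters of the windows and were not tested as sites of binding.

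**Figure D1:**
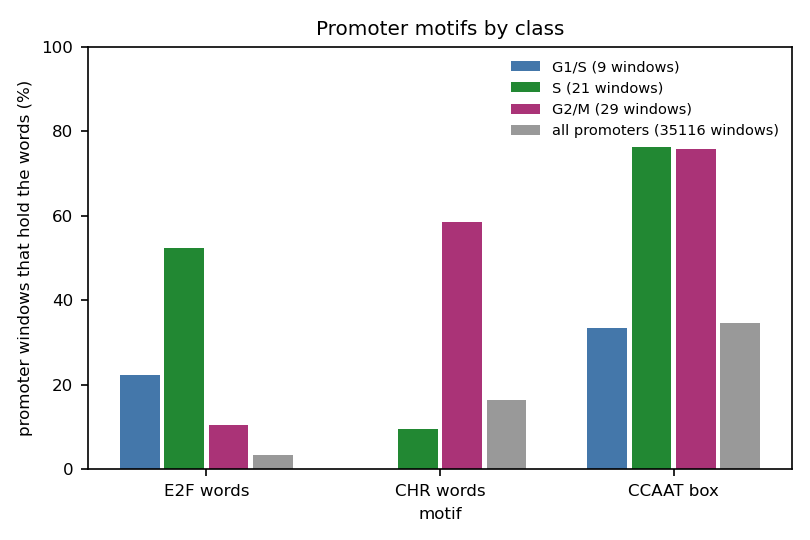
Share of RefSeq promoter windows (percent, vertical axis) that hold E2F words, CHR words or a CCAAT box, for the 9 windows of G1/S genes, 21 of S genes, 29 of G2/M genes and all 35116 windows. E2F words were most frequent in S windows (52.4%) and CHR words in G2/M windows (58.6%).

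The data were values in TPM (a measure of transcript abundance in which reads are divided by gene length and each library is scaled to a sum of 1000000). Reads recovered from these values numbered 15177371 to 18564988 per library, and the lowest number on any of the 52 genes in any library was 53. Both replicate 3 libraries stood apart from the others in their mitochondrial RNA. Genes of the mitochondrial chromosome (chrM) held 34.5% of the TPM in A549 MOCK replicate 3 and 26.9% in A549 Rec replicate 3, against 13.3% to 17.3% in the other 4 libraries. For this reason all TPM below were rescaled to 1000000 over the genes outside chrM. RCVRN, the gene of recoverin, was listed at 0 in each A549 MOCK library and had a TPM of 389.5, 390.0 and 464 in A549 Rec replicates 1, 2 and 3, as the labels state. Epithelial markers of A549 were high in every library, with a TPM of 2929 to 3352 for KRT8, 3297 to 3988 for KRT18 and 166 to 179 for CDH1. EPCAM was low (1.34 to 3.53), and KRT19 was near 0 (0.0845 to 0.445). Of the leukocyte markers, CD3E was listed at 0 and PTPRC and LYZ were under 1, and of the fibroblast markers COL1A2 was at 0, COL3A1 and DCN were near 0 and COL1A1 was between 3.38 and 6.08.

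The levels of the 52 genes extended from a mean TPM of 3.62 for CCNE2 (cyclin E2) to 794 for PCNA, the sliding clamp of DNA polymerase. The median level was 35.8 in the G1/S class, 55.4 in the S class and 75.2 in the G2/M class. Among same-group replicates the genes varied more in A549 MOCK than in A549 Rec, with a median SD of 12.2% of the mean against 6.86% (n = 3 each). For all tested genes these values were 14.6% and 10.6%. The plot of 10 genes by library shows this spread.

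**Figure D2:**
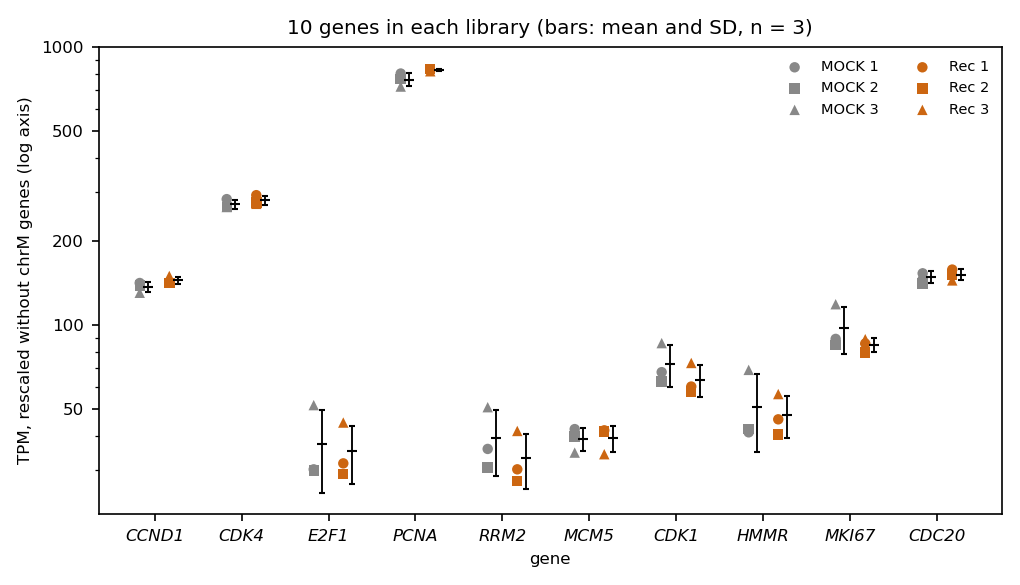
TPM rescaled without chrM genes (log axis) of 10 genes in the 3 A549 MOCK libraries (grey) and the 3 A549 Rec libraries (orange), with circles, squares and triangles for replicates 1, 2 and 3 and bars for mean and SD (n = 3). The triangles of E2F1, RRM2, CDK1 and HMMR lie above the other points of their group and those of MCM5 below them, on this scale. On the TPM as deposited, CDK1 in replicate 3 differed by 0.06 on the log2 scale with an adjusted p of 0.566 (limma, Benjamini-Hochberg adjustment).

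The first comparison was A549 Rec against A549 MOCK, which asks whether the transcripts of cell division changed with recoverin. None of the 52 genes passed the test. The lowest adjusted p was 0.9995 (limma with Benjamini-Hochberg adjustment over the 17999 genes), and 0 of 52 genes had an unadjusted p under 0.05 in limma, where 2.53% of all tested genes did. Limma with voom on the recovered reads also gave 0 genes by either p. Over all genes, 0.00556% passed the adjusted test, that is RCVRN alone. In the same comparison the median log2 difference (A549 Rec minus A549 MOCK) was -0.04 for the G1/S genes, -0.04 for the S genes and -0.05 for the G2/M genes, and -0.02 for all tested genes. The widest differences were -0.22 for RRM2 and 0.18 for CDC25C. How the replicates arose was not stated, so that p-values measure the spread between these libraries, which may be technical.

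In the G1/S class, the cyclin D genes and their kinases were nearly level between the groups. CCND1 (cyclin D1, on chromosome 11 from 69641087 to 69654474 in GRCh38) was at 142, 139 and 131 TPM in replicates 1, 2 and 3 of A549 MOCK against 142, 142 and 150.2 in those of A549 Rec. On the rescaled values all A549 Rec libraries lay above all A549 MOCK libraries, although by a narrow margin, and on the TPM as deposited the groups overlapped. The log2 difference of CCND1 after the rescaling was 0.08 (standard error 0.06, unadjusted p = 0.225 from limma). CDK4, the kinase partner of cyclin D, had 284, 266 and 266 in A549 MOCK against 293, 276 and 273 in A549 Rec, and the groups overlapped (log2 difference 0.05, standard error 0.06). In the gene annotation GENCODE (release 44), 44.2% of the exon length of CDK4 lies on an antisense gene, TSPAN31. The annotation and the strand setting of the counting are not given in the sources used here. CDK6, the second kinase of cyclin D, had 25.95, 25.8 and 29.9 against 24.5, 24.8 and 29.1 (log2 difference -0.06, standard error 0.10).

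For the cyclin E and E2F genes, the spread within A549 MOCK exceeded the difference between the groups. CCNE2 was at 2.77, 3.50 and 4.83 TPM in A549 MOCK against 3.41, 3.82 and 3.37 in A549 Rec (log2 difference -0.03, standard error 0.20). E2F1, which activates the genes of S phase (chromosome 20 from 33675683 to 33686404), had 30.3, 30.00 and 51.5 in A549 MOCK against 31.8, 29.1 and 44.6 in A549 Rec. The groups overlapped, and the high library of each group was replicate 3 (log2 difference -0.06, standard error 0.25).

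Among the S genes, PCNA (chromosome 20 from 5114953 to 5126626) was the member with the smallest p in this comparison. Its TPM was 803, 766 and 721 in A549 MOCK against 825, 833 and 818 in A549 Rec, so that the groups did not overlap (763 ± 41.2 and 825 ± 7.60, SD, n = 3 each). The log2 difference was 0.11 (standard error 0.06, unadjusted p = 0.0999 from limma). Non-overlap in this direction was found for 2 of the 52 genes, PCNA and CCND1, against 2.78% of all tested genes, and in the other direction for BUB1B alone, against 3.88%. These separations are those of the rescaled values. On the TPM as deposited the groups overlapped for PCNA, CCND1 and BUB1B alike, with PCNA at 694, 646 and 472 in A549 MOCK against 682, 722 and 598 in A549 Rec. MCM2, a subunit of the replicative helicase, had 66.0, 64.0 and 72.8 in A549 MOCK against 62.7, 68.2 and 65.8 in A549 Rec, with overlap (log2 difference -0.04, standard error 0.07). RRM2, the small subunit of ribonucleotide reductase, which makes deoxynucleotides (chromosome 2 from 10120698 to 10131419), had 35.9, 30.8 and 50.7 against 30.3, 27.5 and 41.6. It was lower in A549 Rec in each same-numbered pair although the groups overlapped. The licensing factor CDT1 had 32.0, 31.4 and 43.4 against 30.9, 30.8 and 36.4, and UHRF1, which maintains DNA methylation behind the fork, had 44.9, 42.4 and 53.8 against 42.3, 41.6 and 44.01. Their log2 differences were -0.11 (standard error 0.14) and -0.13 (standard error 0.10), and in both genes A549 MOCK replicate 3 was the highest library.

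Of the 27 G2/M genes, 20 had a log2 difference below 0 and 7 above 0, none of which passed the test. The lowest were -0.21 for NUSAP1, -0.18 for MKI67, -0.17 for CDK1, -0.17 for CENPF, a kinetochore protein, and -0.12 for BUB1B. MKI67, which encodes the Ki-67 antigen used to mark dividing cells (chromosome 10 from 128096659 to 128126385), was at 89.2, 84.6 and 119 TPM in A549 MOCK against 85.8, 79.8 and 89.0 in A549 Rec. The groups overlapped, and the standard error of the difference was 0.13 (unadjusted p = 0.208 from limma). CDK1, the kinase that drives mitosis (chromosome 10 from 60778331 to 60794852), had 67.7, 62.8 and 86.1 in A549 MOCK against 60.1, 57.7 and 73.1 in A549 Rec (standard error 0.14). As with RRM2, each A549 Rec library of CDK1 lay below the A549 MOCK library of the same number while the groups overlapped. TOP2A, the topoisomerase that untangles sister chromatids, had 224, 215 and 265 against 248, 222 and 214 (log2 difference -0.04, standard error 0.10).

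CCNB1, the cyclin partner of CDK1, was at 130.2, 119 and 131 TPM in A549 MOCK against 130.4, 133 and 118 in A549 Rec. PLK1, the polo-like kinase of mitotic entry, had 96.6, 98.7 and 93.3 against 98.0, 94.9 and 95.9. Both had a log2 difference of 0.00, with standard errors of 0.07 and 0.05. CDC20, the activator of the anaphase-promoting complex, had 154, 141 and 154 against 158, 152 and 145 (log2 difference 0.02, standard error 0.06). AURKA, the kinase of spindle poles, had 142, 139 and 138 against 144, 142 and 132, and BIRC5 (survivin) had 78.1, 70.7 and 81.5 against 71.1, 74.4 and 75.3. The groups overlapped for both. UBE2C, the ubiquitin-conjugating enzyme that works with CDC20, had 168, 169 and 174 against 170.2, 155 and 154. Its unadjusted p of 0.169 (limma, log2 difference -0.09, standard error 0.06) was the smallest of the G2/M class.

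The same comparison was then made within each same-numbered pair, although it is not stated that same-numbered libraries were prepared together. In pair 1, 38 of the 52 genes were higher in A549 Rec (73.1%, against 52.2% of all tested genes), in pair 2 it was 30 (57.7%, against 47.3%), and in pair 3 it was 7 (13.5%, against 39.7%). On the rescaled values, most of the genes were thus higher in A549 Rec in pair 1 and lower in pair 3. Both directions depend on the scale. The rescaling multiplied the TPM of pair 1 by 1.157 in A549 MOCK and 1.209 in A549 Rec, which raises the differences of pair 1. The factors were 1.186 and 1.154 in pair 2 and 1.527 and 1.368 in pair 3, which lowers the differences of these pairs. The pairs were not summarized on the TPM as deposited. For A549 Rec against A549 MOCK over all libraries, 28 of the 52 genes were above 0 on the deposited scale, in place of 14. The median of all tested genes was 0.02 there, in place of -0.02. The median log2 difference of the G1/S genes was 0.06, 0.02 and -0.12 in pairs 1, 2 and 3. The S genes had medians of 0.03, 0.05 and -0.18, and the G2/M genes had 0.07, 0.00 and -0.20. All tested genes had medians of 0.01, -0.01 and -0.06 in the same pairs.

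**Figure D3:**
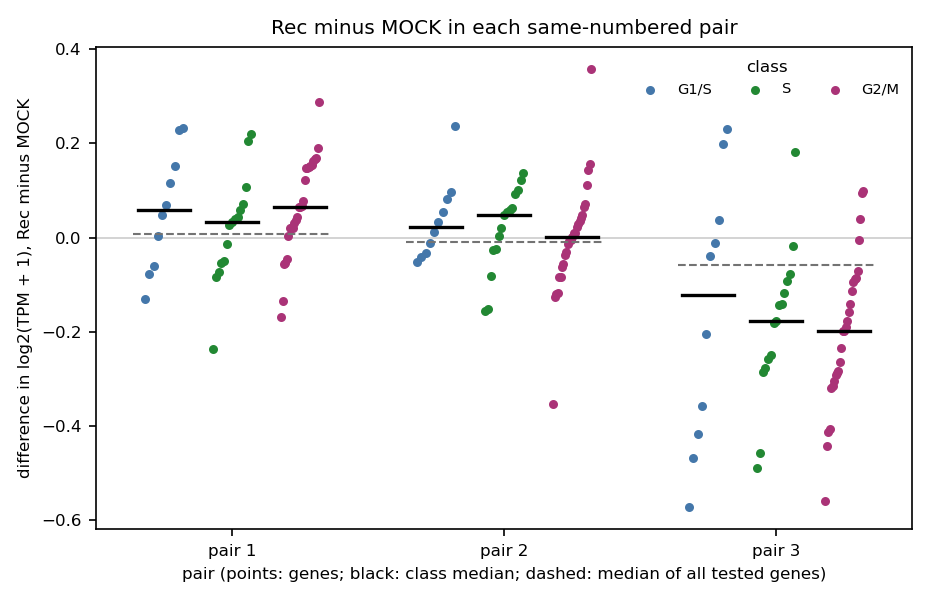
Difference in log2(TPM + 1) between A549 Rec and A549 MOCK (vertical axis) in each same-numbered pair for the 10 G1/S, 15 S and 27 G2/M genes (points), with class medians (black) and the median of all tested genes (dashed). The class medians lie between 0.00 and 0.07 in pairs 1 and 2 and between -0.20 and -0.12 in pair 3. All values are on the scale without chrM genes, which multiplied pair 3 by 1.527 in A549 MOCK and 1.368 in A549 Rec. For pair 1 the factors were 1.157 and 1.209.

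On the rescaled values, a small number of genes kept 1 direction over the 3 pairs. CCND1, CDK4, PCNA and CDC25C, a phosphatase that activates CDK1, were higher in A549 Rec in every pair, and CDK6, CDT1, RRM2, UHRF1, MKI67, CDK1 and BUB1B, a kinase of the spindle checkpoint, were lower in every pair. These 11 genes are 21.2% of the 52, and 26.1% of all tested genes kept 1 direction. On the TPM as deposited, CDC25C, RRM2, MKI67 and CDK1 kept it. CCND1, CDK4, PCNA, CDK6, CDT1, UHRF1 and BUB1B did not, and PCNA was lower in A549 Rec in pair 1 (682 against 694). RRM2 differed by -0.24, -0.16 and -0.28 on the log2 scale in pairs 1, 2 and 3. For CDK1 the differences were -0.17, -0.12 and -0.23, and for PCNA they were 0.04, 0.12 and 0.18. In limma with a replicate block, these 3 genes had an unadjusted p under 0.05, namely 0.0140 for RRM2, 0.0176 for CDK1 and 0.0387 for PCNA, and 5.08% of all tested genes did so. None passed the adjustment in that fit, where the lowest adjusted p of the 52 genes was 0.923 (limma). With the same block on the TPM as deposited, 0 of the 52 genes had an unadjusted p under 0.05 (limma), against 4.13% of all tested genes.

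The difference of pair 3 from pairs 1 and 2 was tested as an interaction term, a choice made after seeing the data. In this fit replicate 3 is 1 library in each group. The p-values of the fit take their spread from replicates 1 and 2 alone and assume that replicate 3 varies like them. None of the 52 genes passed the adjusted test (lowest adjusted p = 0.333, limma). On the rescaled values, the interaction was below 0 (lower in pair 3) in 45 of the 52 genes and above 0 in 7. The rescaling factors given above lower the interaction for all genes alike. On the TPM as deposited, the interaction was not fitted. On the rescaled values it extended from -0.68 for E2F8 to 0.28 for CCND3 on the log2 scale. AURKB, the kinase of the chromosomal passenger complex, had a log2 interaction of -0.43. Its TPM was 64.1, 65.4 and 98.0 in A549 MOCK against 71.1, 68.5 and 78.3 in A549 Rec. Among the 7 genes above 0 were CCND1 (0.18) and CCND3 (0.28), both cyclin D genes. Class medians of the interaction were -0.12 (G1/S), -0.18 (S) and -0.24 (G2/M), and that of all genes was -0.05. Without both replicate 3 libraries, the class medians of A549 Rec against A549 MOCK were 0.03 in each class, against -0.0004 for all tested genes. In that fit, 36 of the 52 genes were higher in A549 Rec.

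The second comparison was replicate 3 against replicates 1 and 2, with the group as a covariate. That replicate 3 stands apart was known from earlier results of these data. The p-values below are thus not those of a comparison chosen without sight of the values. After the rescaling, 10 of the 52 genes passed the test (limma, adjusted p under 0.05), which is 19.2%, against 9.72% of all tested genes and 11.7% of the 13990 genes whose mean TPM lay in the range of the 52. Higher in replicate 3 were 9 genes, against 5.68% of all tested genes, and lower was 1 gene, against 4.03%. On the TPM as deposited, where the median of all genes was -0.19 in place of 0.08, the numbers were 2 higher, against 1.74% of all tested genes, and 14 lower, against 24.8%. In either direction 26.6% of all genes passed on that scale. The share of chrM genes given above sets this change of scale. The median log2 difference was 0.22 for the G1/S genes, 0.14 for the S genes and 0.15 for the G2/M genes after the rescaling, and -0.05, -0.15 and -0.14 on the deposited scale.

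The 1 gene of the G1/S class that rose in replicate 3 was E2F1. From the values given above, both of its replicate 3 libraries lay over the other 4, with a log2 difference of 0.65 after the rescaling (standard error 0.08, limma adjusted p = 0.0149), a ratio of 1.56. It was also higher on the deposited scale (log2 difference 0.35, adjusted p = 0.0157 from limma). The printed E2F1 promoter holds E2F words itself, as do those of CDT1 and PCNA, of which CDT1 rose and PCNA did not pass the test. E2F2 and E2F8, of the same family, had log2 differences of 0.42 and 0.56 that did not pass (adjusted p = 0.142 and 0.111 from limma). For CCND1, CCND3 and CDK4 the log2 differences were between -0.08 and -0.01, and on the deposited scale CCND3 and CDK4 were lower in replicate 3.

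In the S class, RRM2, CDC6 and CDT1 rose and MCM5 fell after the rescaling. The log2 difference of RRM2 was 0.55 (standard error 0.08, limma adjusted p = 0.0224) and fell to 0.26 on the deposited scale, with an adjusted p of 0.0753. CDC6, which loads the helicase with CDT1, was at 28.6, 25.9 and 39.0 TPM in A549 MOCK against 29.5, 26.01 and 34.3 in A549 Rec. The log2 differences of CDC6 and CDT1 were 0.40 and 0.34 (adjusted p = 0.0471 and 0.0402 from limma), and on the deposited scale they were 0.11 and 0.05 and did not pass. MCM5, a helicase subunit (chromosome 22 from 35400063 to 35425430), had 42.3, 39.7 and 34.8 in A549 MOCK against 41.8, 41.4 and 34.3 in A549 Rec, with both replicate 3 libraries the lowest. It fell by 0.25 on the log2 scale (standard error 0.06, adjusted p = 0.0471 from limma), and by 0.54 on the deposited scale. Not all subunits of the helicase moved alike, as MCM2, MCM3, MCM4 and MCM7 had log2 differences between 0.09 and 0.16 and MCM6 had -0.16, none of which passed the adjusted test.

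The 5 genes of the G2/M class that rose after the rescaling were HMMR, CDK1, FOXM1, MYBL2 and CDC25B. HMMR, a spindle-associated protein (chromosome 5 from 163460203 to 163491945), was at 41.1, 42.2 and 69.0 TPM in A549 MOCK against 45.8, 40.4 and 56.5 in A549 Rec. It was the highest in both replicate 3 libraries on this scale (log2 difference 0.55, standard error 0.09, limma adjusted p = 0.0285), and on the deposited scale it passed as well (0.26, adjusted p = 0.0444). The transcription factors FOXM1 and MYBL2, which turn on the genes of mitosis, had 90.2, 87.5 and 112 and 112, 113 and 132 in A549 MOCK. In A549 Rec they had 94.4, 96.8 and 112 (FOXM1) and 115, 112 and 141 (MYBL2).

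These 2 factors differed by 0.28 and 0.27 on the log2 scale (adjusted p = 0.0262 and 0.0225 from limma), and by -0.01 and -0.02 on the deposited scale. CDK1 differed by 0.35 (standard error 0.06, adjusted p = 0.0241) after the rescaling. CDC25B, a phosphatase that activates CDK1, was at 488, 473 and 609 TPM in A549 MOCK against 473, 473 and 531 in A549 Rec, with a log2 difference of 0.25 (adjusted p = 0.0357 from limma) that was -0.04 on the deposited scale. The other 22 genes of the G2/M class did not pass after the rescaling. Among them, the log2 difference was 0.28 for MKI67 (adjusted p = 0.0968), 0.07 for TOP2A, -0.04 for CCNB1, -0.04 for PLK1, -0.02 for CDC20 and -0.07 for AURKA, and on the deposited scale CCNB1, PLK1, CDC20 and AURKA passed as lower in replicate 3.

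Counted without a test, both replicate 3 libraries lay above the other 4 in 22 of the 52 genes (5 G1/S, 8 S and 9 G2/M genes), against 26.9% of all tested genes. They lay below in 4 genes, against 14.4%, and these were MCM5, MCM6, AURKA and KIF20A, a kinesin of cytokinesis. The shift was not equal in the groups. Within A549 MOCK, the median log2 difference of replicate 3 from the mean of replicates 1 and 2 was 0.35, 0.26 and 0.27 for the G1/S, S and G2/M genes, against 0.11 for all genes. Within A549 Rec it was 0.09, 0.05 and 0.02, against 0.04. A549 MOCK replicate 3 was the highest of the 6 libraries in 36 of the 52 genes (69.2%), against 39.6% of all tested genes, and A549 Rec replicate 3 was the highest in 4. The medians and counts of this paragraph are on the rescaled values and were not taken on the TPM as deposited. The rescaling multiplied A549 MOCK replicate 3 by 1.527, the largest factor, against 1.154 to 1.368 for the other libraries.

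**Figure D4:**
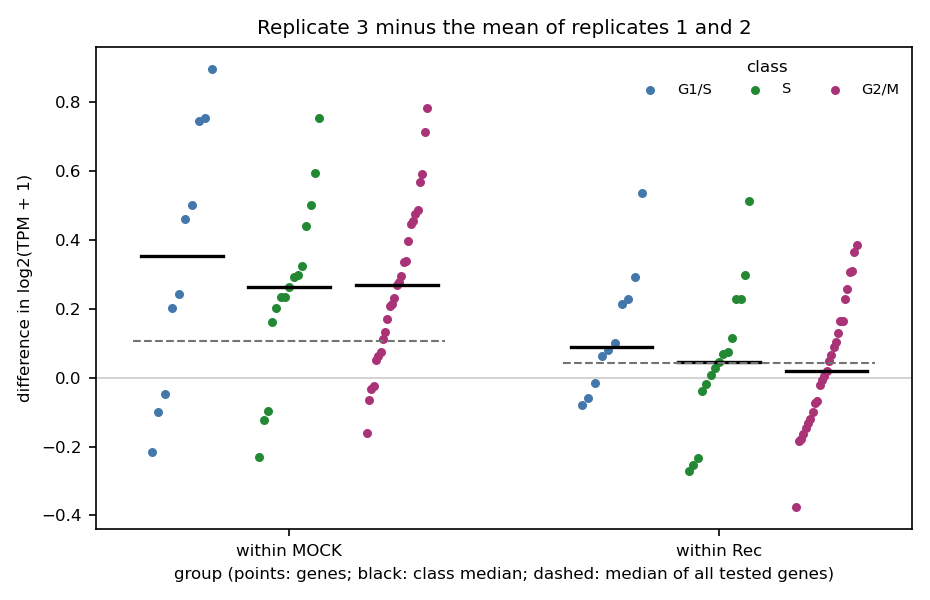
Difference in log2(TPM + 1) of replicate 3 from the mean of replicates 1 and 2 (vertical axis, scale without chrM genes) within A549 MOCK and within A549 Rec, for G1/S, S and G2/M genes (points), with class medians (black) and the median of all tested genes (dashed). Class medians lie between 0.26 and 0.35 within A549 MOCK and between 0.02 and 0.09 within A549 Rec. Over both groups the medians turn to between -0.15 and -0.05 on the TPM as deposited.

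The result depended on single libraries, for the 52 genes as for all genes. Without A549 MOCK replicate 3, 0 of the 52 genes passed (limma, adjusted p under 0.05), against 0.289% of all tested genes, 15 had an unadjusted p under 0.05, against 18.1%, and the class medians fell to 0.09, 0.05 and 0.02. Without A549 Rec replicate 3, 18 rose, against 7.67% of all tested genes, and 0 fell, against 4.19%. In each of these fits replicate 3 is 1 library, which is assumed to vary like the others. Without A549 MOCK replicate 1 or 2 or A549 Rec replicate 2, 0 genes passed in limma, against 0.511%, 0.367% and 0.528% of all tested genes. At an unadjusted p under 0.05 there were 19, 20 and 22 genes in these fits, against 25.3%, 24.9% and 25.7%. Without A549 Rec replicate 1, 3 rose, against 1.44%. All 10 genes that passed with all libraries kept their sign with each library left out. In the fits without a library of replicate 1 or 2, their adjusted p extended from 0.0353 to 0.123 (limma). The sum of the TPM, which follows the most abundant genes, over the 52 genes was 5129, 4962 and 5689 in replicates 1, 2 and 3 of A549 MOCK against 5255, 5086 and 5291 in A549 Rec.

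**Figure D5:**
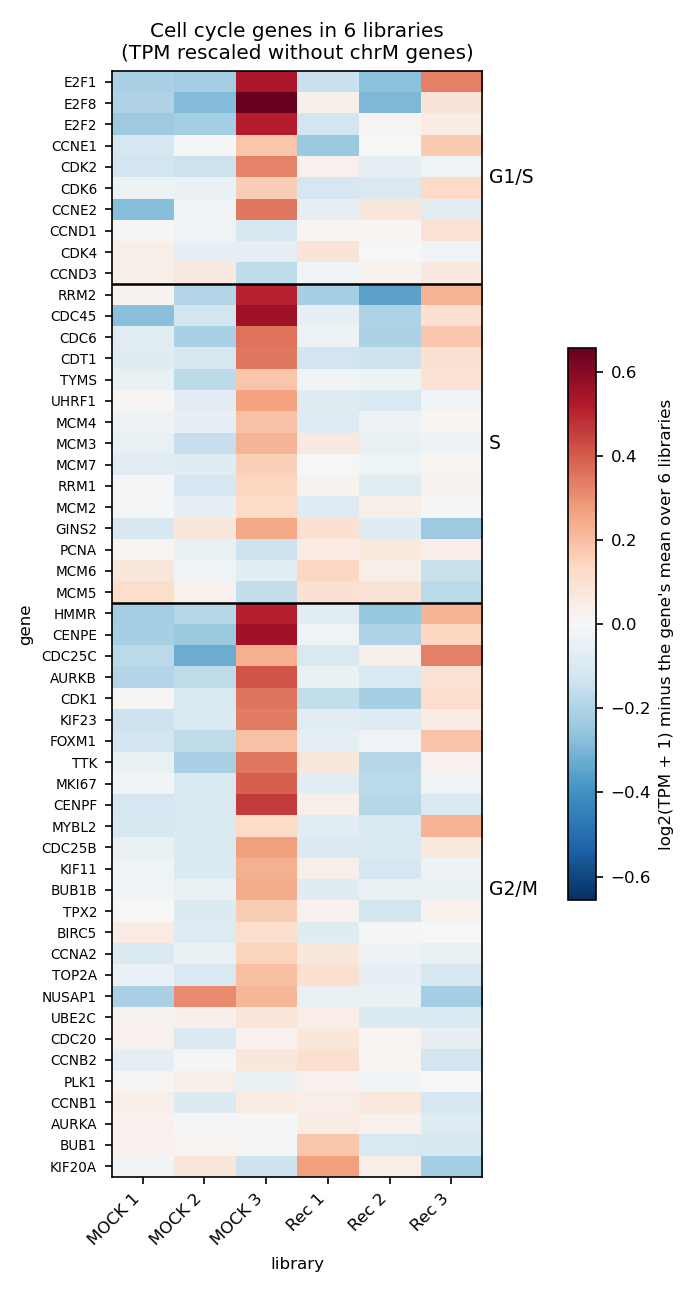
Each of the 52 genes (rows, by class and by its difference in replicate 3) in the 6 libraries (columns), as log2(TPM + 1) on the scale without chrM genes minus the gene's mean over the libraries (colour). The column of A549 MOCK replicate 3 holds the highest value in 36 of the 52 genes and that of A549 Rec replicate 3 in 4. This scale multiplied the TPM of A549 MOCK replicate 3 by 1.527, the largest factor of the 6 libraries. On the TPM as deposited, 14 of the genes passed as lower in replicate 3, against 24.8% of all tested genes, and 2 as higher, against 1.74%.

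The promoter words were set beside the result in replicate 3 after the rescaling, for the 40 of the 52 genes with a window. FOXM1, which rose, and MCM5, which fell, had no window. Of all tested genes, 5.68% rose. Of the 17 genes with a CHR word, 3 rose, and of the 23 without one, 5 rose, with median log2 differences of 0.15 and 0.21. Of the 14 genes with an E2F word, 4 rose, and of the 26 without one, 4 rose, with medians of 0.16 and 0.18. The difference between these shares was not tested. On the deposited scale only E2F1 and HMMR passed as higher among all 52 genes, against 1.74% of all tested genes.

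Other genes of the pathway were taken from lists. Of 10 CDK inhibitors and RB family genes, 8 could be tested, and CDKN2A and CDKN2B, the inhibitors of CDK4 and CDK6, were listed at 0 in every library. None passed in A549 Rec against A549 MOCK, also without adjustment. The smallest unadjusted p were those of CDKN2D (p19, another inhibitor of CDK4 and CDK6) with 0.0503 and CDKN2C with 0.522 (limma). CDKN2D was at 9.32, 7.85 and 11.4 TPM in A549 MOCK against 12.2, 11.8 and 12.6 in A549 Rec. Its groups did not overlap (log2 difference 0.34, standard error 0.14), and with the replicate block its unadjusted p was 0.0337. In replicate 3, CDKN1A (p21, the inhibitor induced by p53) rose by 0.50 on the log2 scale after the rescaling (adjusted p = 0.0411 from limma), and CDKN2C fell by 0.29 (adjusted p = 0.0493). CDKN1A was at 184, 175 and 216 in A549 MOCK against 172, 180.1 and 292 in A549 Rec. Here, A549 Rec replicate 3 was the highest library, unlike in most of the 52 genes.

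Of 20 further genes of G1/S and S phase, 0 passed in A549 Rec against A549 MOCK, with or without adjustment, and 5 rose and 0 fell in replicate 3 after the rescaling, against 5.68% and 4.03% of all tested genes. The smallest p in replicate 3 was that of ORC6, of the origin recognition complex, with a TPM of 13.6, 14.2 and 32.3 in A549 MOCK against 13.8, 13.3 and 24.4 in A549 Rec (log2 difference 0.98, adjusted p = 0.0124 from limma), and CLSPN, an adaptor of the replication checkpoint, followed (0.60, adjusted p = 0.0231). In A549 Rec against A549 MOCK, the smallest unadjusted p were 0.113 for SLBP, which binds histone mRNA, and 0.258 for ORC1. With the replicate block that of SLBP was 0.0310 (log2 difference -0.13, adjusted p = 0.931 from limma), and it was lower in A549 Rec in all 3 pairs. Of 26 further genes of G2/M, 25 could be tested, with 0 passing in the first comparison. Without adjustment 1 did, CKS2, against 2.53% of all tested genes. In replicate 3, 3 rose after the rescaling, against 5.68% of all tested genes. In order of p these were CDCA8 (0.37, adjusted p = 0.0274), CKS1B (0.22, adjusted p = 0.0323) and MAD2L1, of the spindle checkpoint (0.48, adjusted p = 0.04999). CKS2, a small subunit that binds CDK1, had 254, 244 and 248 in A549 MOCK against 194, 216 and 212 in A549 Rec. On these rescaled values the groups did not overlap, as for 3.88% of all tested genes in this direction. On the TPM as deposited (220, 206 and 162 against 160, 188 and 155) there was overlap for CKS2. The log2 difference of CKS2 after the rescaling, -0.26 (standard error 0.06), had an unadjusted p of 0.00412 and an adjusted p of 0.9995 (limma). The next smallest unadjusted p of this list was 0.256 for CDCA3.

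Of 14 genes of tubulins and microtubules, 13 could be tested and TUBB was listed at 0 in every library. Whether the 0 of TUBB reflects the cells or the counting of reads was not tested. In A549 Rec against A549 MOCK 0 passed, with or without adjustment, and the smallest unadjusted p were 0.161 for TUBB2B and 0.411 for TUBG1 (limma). In replicate 3, 3 fell, against 4.03% of all tested genes, and 0 rose after the rescaling, with TUBB4A first at 30.1, 33.7 and 16.8 in A549 MOCK against 30.5, 32.6 and 20.6 in A549 Rec (log2 difference -0.74, adjusted p = 0.0173) and TUBA4A next (-0.26, adjusted p = 0.0368). Their reads may be shared with near-identical family members.

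Some of the 52 genes share exons with other genes in the gene annotation GENCODE (release 44), which may limit their values. The annotation used for the TPM is not given and may differ. The gene length recovered from the TPM equalled the GENCODE exon length in 14535 of 29891 genes. NUSAP1, a spindle protein, shared 86.8% of its exon length with same-strand genes, among them OIP5-AS1, so that its TPM of 7.05 to 10.6 is uncertain. Over 20% of the exon length lay on an antisense gene in 4 members (CDK4, CCNE2, MCM2 and TYMS). The other members with same-strand overlap were BUB1B (10.2%) and MCM7 (0.585%). Outside the 52, PRC1, the further G2/M gene that could not be tested, shared 57.6% with a same-strand gene. Its TPM of 0.125 to 1.05 is likewise uncertain.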

How the data were processed

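RNA sequencing of A549 Rec (n = 3) and A549 MOCK (n = 3) was analysed, with groups and replicate numbers from the labels. The authors deposited TPM, that is reads per gene length scaled to 1000000 per library, chrM genes included. Per the labels and the paper's methods, reads were trimmed with Trimmomatic 0.38, mapped with HISAT2 2.1.0 to GRCh38 (the labels list a mouse build, but the listed genes and coordinates are human) and counted with featureCounts 1.6.3, and the authors used DESeq2 for their own test. The annotation release and the strand setting are not given in the sources used here.

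TPM were rescaled without 37 chrM genes. Tests used limma 3.58.1 in R 4.3.3 (moderated test with a variance trend) with a pseudocount of 1 before the log2. The 17999 genes tested had at least 1 TPM in 3 or more libraries. Genes were called at a Benjamini-Hochberg adjusted p under 0.05, and for DEGs also a fold change of 2. Log2 differences with this pseudocount understate changes of low genes. With 3 libraries against 3, an exact permutation test cannot give p under 0.1, so none was used. Reads were recovered from whole multiples (tolerance 0.01 of a read). In simulated tables, 1306 of 1312 genes with 100 or more reads were recovered exactly, and depth figures cover counting error only. Same-numbered libraries correlated in their deviations from the group means (0.102, 0.147 and 0.297 for replicates 1, 2 and 3 over 17999 genes). A549 MOCK replicate 1 correlated as much with A549 Rec replicate 2 (0.101), so that replicate 1 does not stand out as a pair. A549 MOCK replicate 2 with A549 Rec replicate 1 gave 0.0565. The values between replicate 3 and the others were -0.201 to -0.129. Deviations within a group sum to 0. A shift shared by both replicate 3 libraries therefore raises the values among replicates 1 and 2 by itself. The block result is given where it changes a count. That same-numbered libraries were prepared together is not stated.

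The genes, the lists and the comparison of replicate 3 with the others were chosen with earlier results of these data known. Named were 15 genes by role and the 2 smallest p per class in each comparison, or per list for the other genes. Further genes are named as exceptions or for calls, after their values were seen.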

Additional observations from a re-analysis of the deposited data

How the results depend on the processing

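The alternatives were run for the counts, the class medians and the 20 named genes. A limma fit of the recovered reads with voom and the interaction were added after the values had been seen. In every alternative of A549 Rec against A549 MOCK, 0 of the 52 genes had an adjusted p under 0.05. DEGs among all genes were 1, or 7 without the trend, 2 without both replicate 3 libraries, 2 with voom and the replicate block, and 1 to 2 with each library left out. Members with an unadjusted p under 0.05 were 0, against 2.53% of all tested genes in the main fit. They were 3 with the replicate block (against 5.08%) and 4 with voom and the replicate block (against 4.95%). With each library left out they were 0 to 1 (against 2.03% to 4.39%), and in the other alternatives they were 0. The replicate block changed no adjusted call of the 52 genes or of the lists of other cell cycle genes. Dropping the fold threshold left the count for the 52 genes at 0. With each library left out, the class medians were -0.11 to 0.079 for G1/S, -0.095 to 0.039 for S and -0.10 to 0.027 for G2/M, and without A549 MOCK replicate 3 all of them were above 0. With TPM as deposited they were 0.0041, 0.0026 and -0.0028. The smallest differences changed sign. With TPM as deposited, with or without the block, they were 0.0396 for AURKA, 0.00997 for CCNE2, 0.00256 for MCM2 and 0.00875 for TOP2A. Quantile normalization gave 0.016 for CCNE2. Without both replicate 3 libraries they were 0.028 for AURKA, 0.16 for CCNE2, 0.014 for E2F1, 0.00939 for MCM2, -0.018 for PLK1 and 0.098 for TOP2A. Voom gave 0.00444 for AURKA, and 0.00567 with the block. With each library left out, the ranges were -0.029 to 0.036 for AURKA, -0.043 to 0.055 for CCNB1, -0.18 to 0.14 for CCNE2, -0.018 to 0.057 for CDC20, -0.13 to 0.011 for CDK6, -0.19 to 0.039 for CDT1, -0.24 to 0.19 for E2F1, -0.080 to 0.012 for MCM2, -0.061 to 0.12 for MYBL2, -0.021 to 0.020 for PLK1 and -0.097 to 0.054 for TOP2A. Among these, leaving out A549 MOCK replicate 3 turned CCNE2, CDK6, CDT1, E2F1, MCM2 and TOP2A to above 0.

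In replicate 3 against the others, 1749 genes had an adjusted p under 0.05 in limma. There were 4620 with TPM as deposited, 635 without the filter, 3 without the trend, 3671 with voom and 52 to 2134 with each library left out. Members that rose were 9, against 5.68% of all tested genes. They were 2 with TPM as deposited (against 1.74%), 5 without the filter (against 1.22%), 0 without the trend (against 0.0167%) and 18 with voom (against 12.8%). With a library of replicate 1 or 2 left out they were 0 to 3 (against 0.261% to 1.44%). Members that fell were 1, against 4.03%. They were 14 with TPM as deposited (against 24.8%), 0 without the filter (against 0.904%), 0 without the trend (against 0%) and 2 with voom (against 7.60%). With a library of replicate 1 or 2 left out they were 0 (against 0.106% to 1.18%). Of the 10 calls, 3 held on the deposited scale, 8 with quantile normalization and 10 with a pseudocount of 0.1, without the covariate and with voom. The class medians with TPM as deposited were -0.045 (G1/S), -0.15 (S) and -0.14 (G2/M), and with each library left out they were 0.09 to 0.35, 0.05 to 0.26 and 0.02 to 0.27. The ends of these ranges are the medians within A549 Rec and within A549 MOCK. On the deposited scale the difference was below 0 for BIRC5 (-0.20), CCNE2 (-0.023), CDK6 (-0.071), MCM2 (-0.21), MKI67 (-0.019), MYBL2 (-0.024), TOP2A (-0.23) and UHRF1 (-0.11). Quantile normalization gave 0.00129 for CDC20, 0.00652 for CDK4 and 0.029 for UBE2C. With each library left out, the ranges were -0.16 to 0.075 for CCNB1, -0.10 to 0.080 for CCND1, -0.079 to 0.50 for CCNE2, -0.10 to 0.063 for CDC20, -0.13 to 0.27 for TOP2A and -0.074 to 0.050 for UBE2C. The alternatives changed the scale, the weights or the number of libraries, and a cause beyond that was not tested. Over both comparisons, 55 values of named genes changed sign and 482 kept sign and call. The precision is limited by 3 libraries a group.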
